A study of Urocitellus parryii with 3 samples.

Results

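miR-221-3p and miR-222-3p, the dominant arms of a pair of related miRNAs, were followed in liver small RNA of arctic ground squirrels (Urocitellus parryii), hibernating rodents whose long bouts of torpor are interrupted by arousals. Reads were assigned to a member when they shared its first 18 bases, and each distinct read was counted once per library. The pair held 37608 reads, 25513 of miR-221-3p and 12095 of miR-222-3p. These were 1450 of 255868 distinct reads in early arousal, 1150 of 190722 in late torpor and 2005 of 249950 in post-reproduction. The pair was 2 of 119 miRNA names that had a read.

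The groups were wild-trapped squirrels in 3 stages, with no genetic change or drug treatment named in the labels. Early arousal and late torpor animals (4 each) were kept on 4 h light and 20 h dark and carried temperature transmitters, and had passed through at least 4 torpor bouts. The labels put their sampling on day 4 of a bout, and how this was counted for early arousal is not stated. Post-reproduction animals (6) were summer animals at normal body temperature, kept on 16 h light and 8 h dark and anesthetized with isoflurane. Against post-reproduction, stage, light cycle, anesthesia and transmitter therefore cannot be told apart. Liver RNA of all animals of a stage was mixed before sequencing, so each stage is 1 library, no value has a replicate, and no test between stages was possible. Every ratio compares 2 libraries, and all intervals are 95% intervals that cover counting error only.

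miR-221 and miR-222 are made from neighbouring genes on the X chromosome of mammals and are usually produced from a common transcript. They share a seed, the stretch at bases 2 to 8 that pairs with target mRNAs, and so are predicted to bind many of the same transcripts. In human and mouse cells they lower the cell cycle inhibitor p27 (Cdkn1b) and the receptor Kit, and they are known from endothelial and smooth muscle cells, from activated hepatic stellate cells and from proliferating hepatocytes and liver tumours.

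The sequences below are the inserts that held at least 5% of a member's inserts in any library, with the seed in capitals. They are shown because the members differ after the seed and because the variation described later lies at their 3′ ends. They are read from the deposited table, in DNA letters with T for U, 5′ to 3′.
miR-221-3p, 22 nt: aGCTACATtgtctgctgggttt
miR-221-3p, 23 nt ending in T: aGCTACATtgtctgctgggtttt
miR-221-3p, 23 nt ending in C: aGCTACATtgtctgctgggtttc
miR-221-3p, 24 nt: aGCTACATtgtctgctgggttttt
miR-222-3p, 23 nt: aGCTACATctggctactgggtct
miR-222-3p, 24 nt: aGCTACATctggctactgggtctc
miR-222-3p, 25 nt: aGCTACATctggctactgggtctct

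The first 8 bases were identical between the members, all 7 seed bases included, and the sequences first differed at base 9. Over the first 18 bases, 9 were identical. A target site for this seed would hold its complement, atgtagc. In the liver the seed was almost entirely that of the pair. Of 37912 reads that carried it from base 2 onward, 37608 (99.2%) belonged to miR-221-3p or miR-222-3p.

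The members were placed on different scaffolds. The sources used here do not name the genome build. miR-221-3p lay on the minus strand of scaffold 16359, from 32464 to 32485 for its 22-base form. The partner arm miR-221-5p, which comes from the other side of the same hairpin, lay on the same strand from 32504 to 32525. The 18 bases between the arms, from 32486 to 32503, form the loop side of a stretch of 62 bases. This arrangement is that of a miRNA hairpin, with both arms sequenced. The partner arm was present mainly in 4 forms, shown here because their ends all follow the locus, whereas some ends of miR-221-3p do not.
miR-221-5p, 21 nt: aCCTGGCAtacaatgtagatt
miR-221-5p, 22 nt: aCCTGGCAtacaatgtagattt
miR-221-5p, 23 nt: aCCTGGCAtacaatgtagatttc
miR-221-5p, 24 nt: aCCTGGCAtacaatgtagatttct

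A few other small RNAs came from around this hairpin. Directly upstream of the 5p arm, from 32526 to 32552, the table held 13 reads in early arousal, 1 in late torpor and 11 in post-reproduction. Their longest form, ggctgaatatccaggtctgtggcatga, ended on the base before miR-221-5p starts. Downstream, 330 bases past miR-221-3p, a separate cluster had 18 reads in early arousal, 4 in late torpor and 17 in post-reproduction. Both places had fewest reads in late torpor, from counts of 25 and 39 in all. Reads within the hairpin that began at another base than the arms numbered 118, 111 and 108 in early arousal, late torpor and post-reproduction, so the starts of both arms were nearly uniform.

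miR-222-3p lay on GeneScaffold 470 (plus strand, positions 236817 to 236834), and there 12048 of its 12095 reads were placed over 18 bases only. The bases that follow in the reads did not match that position. No placed read with another start lay within 1000 bases of it, and no read began with the start of miR-222-5p, the partner arm. Because the table lists placed reads only, this does not show that the arm was missing from the liver. The position named for miR-222-3p is thus a match of 18 bases without a partner arm, and the distance between the miR-221 and miR-222 genes was not measured here. All reads of both members were placed at 1 position each.

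Liver libraries were of similar depth, with 5611673 placed reads in early arousal, 5860476 in late torpor and 5614441 in post-reproduction. The hepatocyte miRNA miR-122-5p dominated all of them, as in other mammalian liver. Listed miRNAs took 92.1% of placed reads in early arousal, 94.8% in late torpor and 93.4% in post-reproduction. Sequencing quality differed between libraries. Reads with an unread base (N) made up 0.407%, 1.04% and 5.76% of placed reads in early arousal, late torpor and post-reproduction. Levels are given as normalised CPM (counts scaled by library size) after scaling by trimmed mean of M-values (TMM) factors over all groups of reads that share 18 bases. A second scaling, with TMM factors over the listed miRNAs only, is given beside ratios of all reads because some calls depend on it.

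miR-221-3p was the more abundant member and was highest in post-reproduction. It had 8088 reads in early arousal, 8041 in late torpor and 9384 in post-reproduction. These corresponded to 1268 CPM in early arousal (1241 to 1296), 1537 CPM in late torpor (1504 to 1571) and 1696 CPM in post-reproduction (1662 to 1730). It ranked 17th among listed miRNAs in early arousal, 18th in late torpor and 14th in post-reproduction. The 3 intervals did not overlap on this scaling, with early arousal lowest. Scaled over listed miRNAs, the levels were 1482, 1527 and 1788 CPM in early arousal, late torpor and post-reproduction, with the hibernation-season libraries close together. In mixed liver RNA, fewer cells that make a miRNA and less of it per cell cannot be told apart.

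miR-222-3p was also highest in post-reproduction. It had 4010 reads in early arousal, 3425 in late torpor and 4660 in post-reproduction. Its levels were 629 CPM in early arousal (609 to 649), 655 CPM in late torpor (633 to 677) and 842 CPM in post-reproduction (818 to 867). The early arousal and late torpor intervals overlapped and both lay under post-reproduction. Scaled over listed miRNAs, the levels were 735, 650 and 888 CPM in early arousal, late torpor and post-reproduction. It ranked 24th among listed miRNAs with placed reads in each library.

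**Figure D1:**
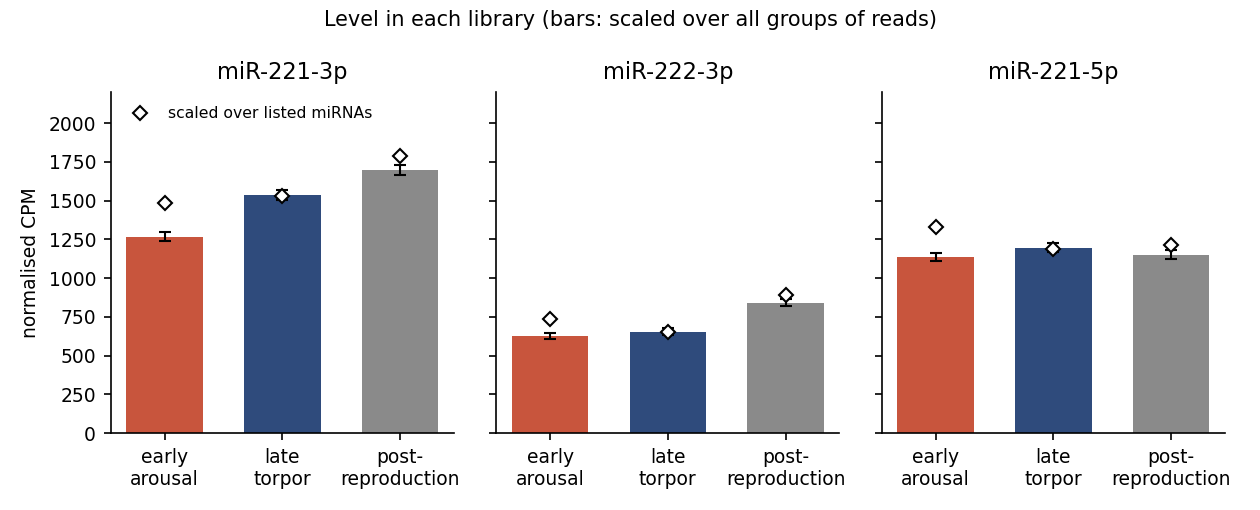
Normalised CPM of miR-221-3p, miR-222-3p and the partner arm miR-221-5p in each library, with bars for scaling over all groups of reads, 95% counting intervals, and diamonds for scaling over listed miRNAs. Both members stood highest in post-reproduction, at 1696 and 842 CPM, under either scaling, while miR-221-5p lay between 1136 and 1195 CPM.

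In late torpor against post-reproduction, both members were lower. The ratio was 0.906 (0.880 to 0.934) for miR-221-3p and 0.777 (0.744 to 0.813) for miR-222-3p. On the listed-miRNA scaling, the ratios were 0.854 (0.829 to 0.880) for miR-221-3p and 0.732 (0.701 to 0.766) for miR-222-3p. Both intervals lay below 1, as they did for 28.4% of the 81 miRNAs that reached 100 reads in the sum of these libraries (37% scaled over listed miRNAs). Neither member reached a 1.5-fold difference, which 13.6% of the miRNAs did. Of the 81 log2 ratios, with a median of 0.03 and an SD of 0.39, 19 were lower than that of miR-221-3p and 8 lower than that of miR-222-3p. miR-222-3p thus stood nearer the low end of the range than its partner. Reads with a recognised adapter only were also counted, still on the scaling of all reads. The log2 ratio of miR-221-3p was then -0.03 (-0.08 to 0.01), an interval that held 0, against -0.14 over all reads. That of miR-222-3p was then -0.31 (-0.38 to -0.24), against -0.36 over all reads. The adapter was found in 94.4% of miR-221-3p reads in late torpor and in 87.5% in post-reproduction. For miR-122-5p it was found in 3963656 of 4468981 reads in late torpor and in 3541180 of 4205895 in post-reproduction. The scaling did not follow this unequal loss, and a scaling over reads with an adapter was not run. The listed-miRNA factors were not run for these reads either. Whether the miR-221-3p interval then holds 0 may therefore depend on the scaling.

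In early arousal against post-reproduction, both members were lower, and by similar amounts when all their reads were counted. Here miR-221-3p stood at 0.748 of its post-reproduction level (0.726 to 0.770) and miR-222-3p at 0.747 (0.716 to 0.779). With the listed-miRNA factors, the ratios were 0.829 (0.805 to 0.854) for miR-221-3p and 0.828 (0.793 to 0.863) for miR-222-3p. Both intervals lay below 1, as did 50% of 80 intervals over all miRNAs compared (36.2% scaled over listed miRNAs). The median log2 ratio over those miRNAs was -0.16, so the typical miRNA was lower as well on this scaling. Of the 80 log2 ratios, 23 were lower than that of miR-221-3p and 22 lower than that of miR-222-3p. With the most abundant insert of each member only, the log2 ratio of miR-221-3p was -0.44 (-0.52 to -0.36). That of miR-222-3p was -0.16 (-0.27 to -0.06), and the intervals did not overlap. The listed-miRNA factors were not run for single inserts. With those factors the all-read log2 ratio of miR-222-3p was -0.27 in place of -0.42. This miR-222-3p insert had 1483 reads in early arousal and 1439 in post-reproduction, so its call may depend on the scaling. Neither member reached a 1.5-fold difference, which 21.2% of the miRNAs did. This comparison and that of late torpor use the same post-reproduction library.

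In early arousal against late torpor, the outcome for both members depended on the scaling. The ratio of miR-221-3p was 0.825 (0.800 to 0.851), and its interval lay below 1 as did 53.7% of 82 intervals. Under the listed-miRNA factors it was 0.971 (0.941 to 1.001), an interval that held 1. The ratio of miR-222-3p was 0.960 (0.917 to 1.01), an interval that held 1. With factors over the listed miRNAs it was 1.13 (1.08 to 1.18), above 1 as were 30.5% of the intervals on that scaling. Neither member reached a 1.5-fold difference, which 14.6% of the miRNAs did. The median log2 ratio was -0.22 on the first scaling and 0.02 on the second. Relative to these medians, miR-221-3p lay lower by 0.06 and miR-222-3p higher by 0.16 on the log2 scale, whichever scaling was used.

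**Figure D2:**
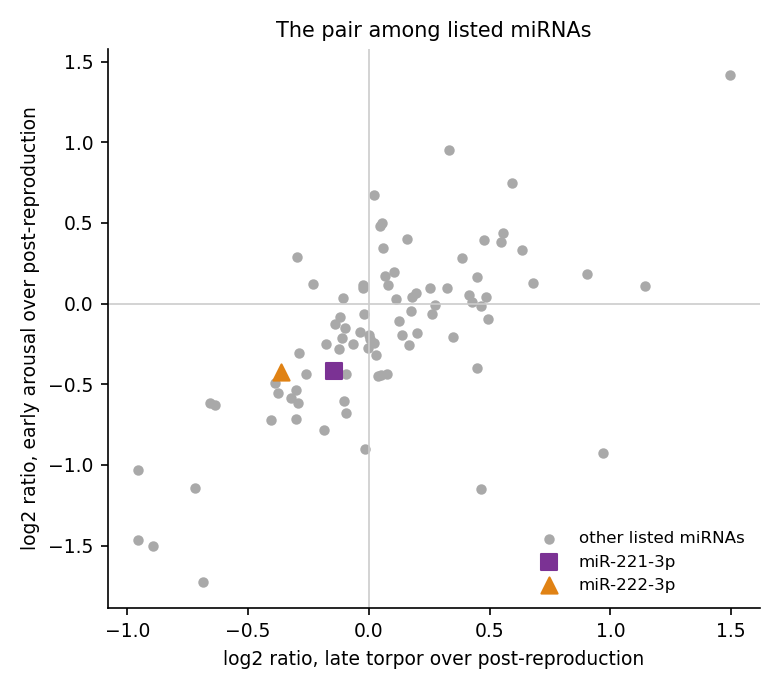
Each point is a listed miRNA with at least 100 reads over the 3 libraries, placed by its log2 ratio of late torpor over post-reproduction (horizontal axis) and of early arousal over post-reproduction (vertical axis). miR-221-3p (-0.14, -0.42) and miR-222-3p (-0.36, -0.42) lie at nearly the same height, within the cloud of other miRNAs, and miR-222-3p lies further left.

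The balance of the members needs no scaling, since both are counted in the same library. There were 2.02 miR-221-3p reads per miR-222-3p read in early arousal (1.94 to 2.10), 2.35 in late torpor (2.26 to 2.44) and 2.01 in post-reproduction (1.94 to 2.09). Late torpor stood apart from the other libraries, and early arousal and post-reproduction overlapped almost fully. The late torpor ratio was 1.17 times that of post-reproduction (1.11 to 1.23). The early arousal ratio was 0.859 times that of late torpor (0.813 to 0.908) and 1.002 times that of post-reproduction (0.951 to 1.06). With the most abundant insert of each member only, the balance was 1.66 in early arousal (1.56 to 1.78), 2.16 in late torpor (2.01 to 2.31) and 2.02 in post-reproduction (1.89 to 2.15). Counted this way, early arousal was the library that stood apart, and late torpor and post-reproduction overlapped.

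The arms of the miR-221 hairpin also changed in balance. miR-221-5p, usually the minor arm, had 7245 reads in early arousal, 6250 in late torpor and 6362 in post-reproduction, fewer than miR-221-3p in each library. There were 0.896 miR-221-5p reads per miR-221-3p read in early arousal (0.868 to 0.925), 0.777 in late torpor (0.752 to 0.803) and 0.678 in post-reproduction (0.657 to 0.700). The 3 intervals did not overlap, with early arousal highest and post-reproduction lowest. The early arousal ratio was 1.32 times that of post-reproduction (1.26 to 1.38) and 1.15 times that of late torpor (1.10 to 1.21). The late torpor ratio was 1.15 times that of post-reproduction (1.09 to 1.20). The lower level of miR-221-3p in the hibernation-season libraries was not seen in the other arm of its hairpin. The ratio of miR-221-5p was 0.988 (0.955 to 1.02) for early arousal over post-reproduction and 1.04 (1.003 to 1.08) for late torpor over post-reproduction. By the listed-miRNA scaling, these were 1.10 (1.06 to 1.13) and 0.979 (0.945 to 1.01).

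**Figure D3:**
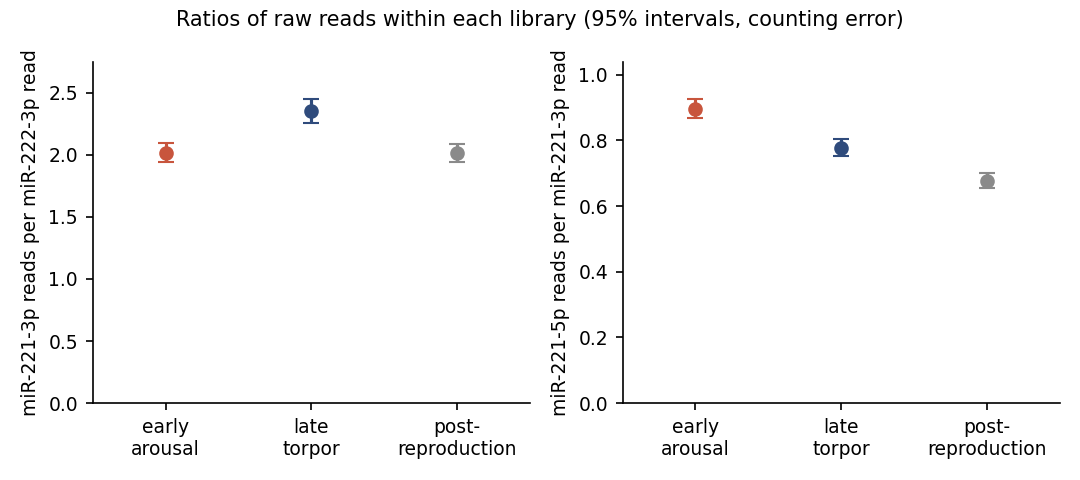
Raw reads of miR-221-3p per read of miR-222-3p (left) and of miR-221-5p per read of miR-221-3p (right) in each library, with 95% counting intervals. Late torpor stands highest on the left, at 2.35, and on the right the values are 0.896 in early arousal, 0.777 in late torpor and 0.678 in post-reproduction.

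Insert lengths, read up to the 3′ adapter, set the members apart. Both had a main length of 23 nt, but miR-222-3p reached further. Its mean length was 23.5 nt in early arousal, 23.7 nt in late torpor and 23.8 nt in post-reproduction. That of miR-221-3p was 22.8 nt in early arousal, 22.9 nt in late torpor and 22.7 nt in post-reproduction. Among the 40 miRNAs with 1000 or more inserts per library, miR-222-3p had the highest mean length in post-reproduction, and 1 miRNA exceeded it in each of the other libraries. The median over these miRNAs was 22.3 nt in each library.

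The length of miR-222-3p differed most between early arousal and the other libraries. Its 23-nt inserts held 48.7% in early arousal (47.0 to 50.3), 43.1% in late torpor (41.3 to 44.8) and 41.1% in post-reproduction (39.6 to 42.6). Its 25-nt inserts held 20.8% in early arousal (19.5 to 22.2), 27.8% in late torpor (26.2 to 29.4) and 29.7% in post-reproduction (28.3 to 31.1). Early arousal thus had more of the main length and fewer long inserts, and its intervals for both lengths did not overlap those of the other libraries. With at least 6 adapter bases required, which drops inserts over 24 nt, the 23-nt shares were 64.2% in early arousal (62.4 to 66.0), 63.5% in late torpor (61.4 to 65.5) and 62.7% in post-reproduction (60.8 to 64.5), and these intervals overlapped. Inserts of 24 nt or more were 41.9% in early arousal, 48.0% in late torpor and 51.9% in post-reproduction. Inserts of 24 nt held 17.7%, 15.8% and 17.5% in early arousal, late torpor and post-reproduction, and those of 26 nt held 3.37%, 4.40% and 4.68%. Short inserts ran the other way, with 4.78%, 3.80% and 3.02% at 21 nt, while those of 22 nt held 4.21%, 4.53% and 3.53%.

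miR-221-3p showed a different pattern, with most inserts of 24 nt or more in late torpor. These were 20.5% in early arousal, 22.8% in late torpor and 16.3% in post-reproduction. Its 25-nt inserts held 3.43% in early arousal (3.03 to 3.87), 4.28% in late torpor (3.84 to 4.76) and 1.94% in post-reproduction (1.65 to 2.26), lowest in post-reproduction with no overlap. The main lengths differed less. Inserts of 22 nt held 36.2%, 36.2% and 39.3%, and those of 23 nt 40.4%, 38.0% and 40.9%, in early arousal, late torpor and post-reproduction. Inserts of 24 nt held 15.2%, 16.9% and 13.4%, those of 26 nt 1.85%, 1.62% and 0.987%, and those of 21 nt 2.24%, 2.35% and 3.07%.

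**Figure D4:**
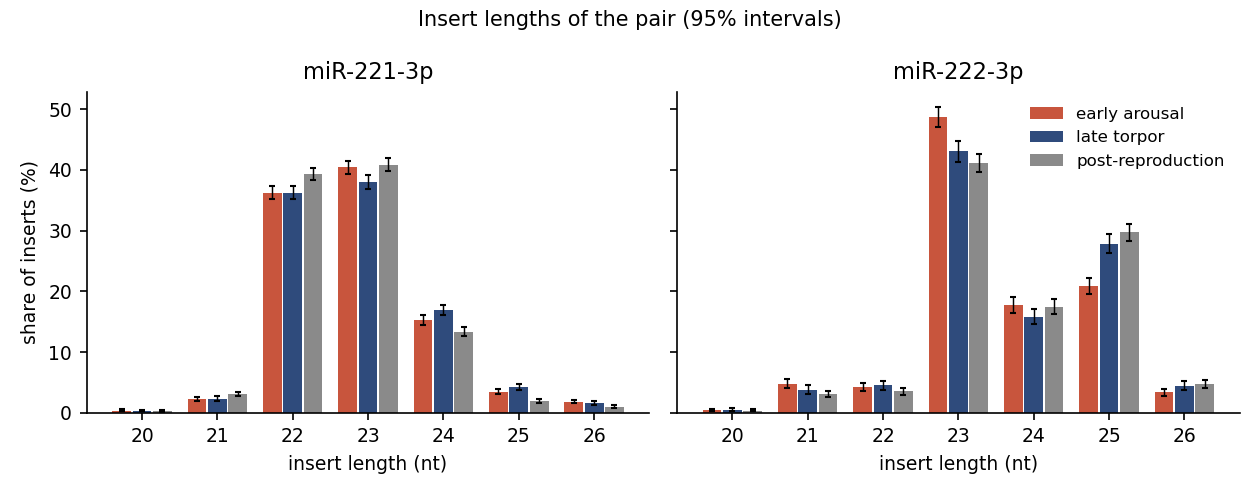
Share of inserts of each length from 20 to 26 nt for miR-221-3p (left) and miR-222-3p (right) in each library, with 95% counting intervals. The 25-nt bar of miR-222-3p is lowest in early arousal (20.8%) and highest in post-reproduction (29.7%), while that of miR-221-3p is lowest in post-reproduction (1.94%).

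The members therefore changed in mean length in opposite directions against post-reproduction. The mean length of miR-221-3p was higher by 0.142 nt in late torpor and by 0.116 nt in early arousal. That of miR-222-3p fell by 0.0921 nt in late torpor and fell by 0.255 nt in early arousal. Over the 40 miRNAs the median difference was 0.0328 nt in late torpor and 0.0382 nt in early arousal, both toward longer inserts. In early arousal no other miRNA of the 40 had a lower difference than miR-222-3p, against post-reproduction or against late torpor. The partner arm miR-221-5p also had shorter inserts in early arousal, by a difference of -0.135 nt against post-reproduction.

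The 3′ ends behind these lengths differed in kind. For miR-222-3p the main 23-nt form held 40.3% of inserts in early arousal (38.7 to 41.9), 36.8% in late torpor (35.1 to 38.5) and 34.5% in post-reproduction (33.1 to 36.0). The 25-nt form that ends in CT after it held 10.8% in early arousal (9.83 to 11.9), 15.4% in late torpor (14.2 to 16.7) and 15.7% in post-reproduction (14.6 to 16.8). The 24-nt form between them was level, at 9.08%, 8.90% and 9.17% in early arousal, late torpor and post-reproduction. The difference of early arousal lay in the 23-nt and 25-nt forms and was not seen in the 24-nt form. Because miR-222-3p was placed over 18 bases only, its genomic 3′ end is not known here, and encoded bases cannot be told apart from added ones. The share of its inserts with bases past the placed part was 100% in early arousal and post-reproduction and 3180 of 3181 inserts in late torpor, which says only that.

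For miR-221-3p the locus could be read further, as aGCTACATtgtctgctgggtttcag, so bases that depart from it can be counted as a 3′ tail. Bases past the placed part were present in 46.4% of inserts in early arousal (45.3 to 47.6), 48.5% in late torpor (47.3 to 49.6) and 44.1% in post-reproduction (43.0 to 45.2). Over the 40 miRNAs the median was 28.8% in early arousal, 26.7% in late torpor and 24.7% in post-reproduction. miR-221-3p was above that median in each library. Of the 40, 28 had more such inserts in late torpor than in post-reproduction and 35 had more in early arousal than in post-reproduction. In early arousal against late torpor, 35 had more in early arousal. The difference of miR-221-3p was -2.02 percentage points, the lowest of the 40. Where placement stopped early, as for miR-222-3p, such bases need not be tails. The partner arm had few such inserts, 9.87% in early arousal, 8.45% in late torpor and 8.13% in post-reproduction.

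Tails of miR-221-3p were mostly T, which stands for U in the RNA. Terminal uridylyl transferases are known to add U to the 3′ end of mature miRNAs. Tails were next measured against the locus sequence. Inserts that differ at base 19 or 20 were not counted as tails but stayed in the total. Tails of T only made up 28.8% of inserts in early arousal (27.8 to 29.8), 32.2% in late torpor (31.2 to 33.3) and 27.1% in post-reproduction (26.1 to 28.0). Tails of 1 T held 19.8% in early arousal (18.9 to 20.7), 21.9% in late torpor (20.98 to 22.9) and 20.9% in post-reproduction (20.1 to 21.8). Tails of 2 T held 6.43% in early arousal (5.89 to 7.01), 7.46% in late torpor (6.88 to 8.07) and 5.19% in post-reproduction (4.72 to 5.69). Tails of 3 or more T held 2.59% in early arousal (2.24 to 2.97), 2.85% in late torpor (2.48 to 3.25) and 0.926% in post-reproduction (0.730 to 1.16). Late torpor had the highest share at each of these lengths, but each time its interval overlapped that of another library. Post-reproduction stood apart by its few tails of 2 T or more. In counts, those of 3 or more T were 196 inserts of 7573 in early arousal, 216 of 7590 in late torpor and 76 of 8207 in post-reproduction. The partner arm miR-221-5p also had fewest T-only tails in post-reproduction. They held 1.78% of its inserts in early arousal (1.48 to 2.11), 2.22% in late torpor (1.87 to 2.63) and 1.13% in post-reproduction (0.877 to 1.43). T-only tails of other miRNAs were not counted, so whether the pattern belongs to miR-221 or to the libraries was not tested.

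Other tails were less frequent. Tails of A only held 6.14% in early arousal (5.61 to 6.70), 6.19% in late torpor (5.66 to 6.76) and 7.26% in post-reproduction (6.71 to 7.84). Tails of mixed A and T held 5.69% in early arousal (5.18 to 6.24), 6.42% in late torpor (5.88 to 6.99) and 4.02% in post-reproduction (3.61 to 4.47), lowest in post-reproduction like the long T tails. Among tails of 2 bases, AT held 2.96%, 2.91% and 2.38%, TA 0.885%, 1.34% and 0.853%, and AA 0.858%, 0.883% and 0.877%, in early arousal, late torpor and post-reproduction. Tails with a G or C held 2.14%, 1.67% and 2.58%. The single A tail, at 5.26%, 5.23% and 6.36%, was the only 1-base or 2-base tail past 0.5% that was most frequent in post-reproduction.

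**Figure D5:**
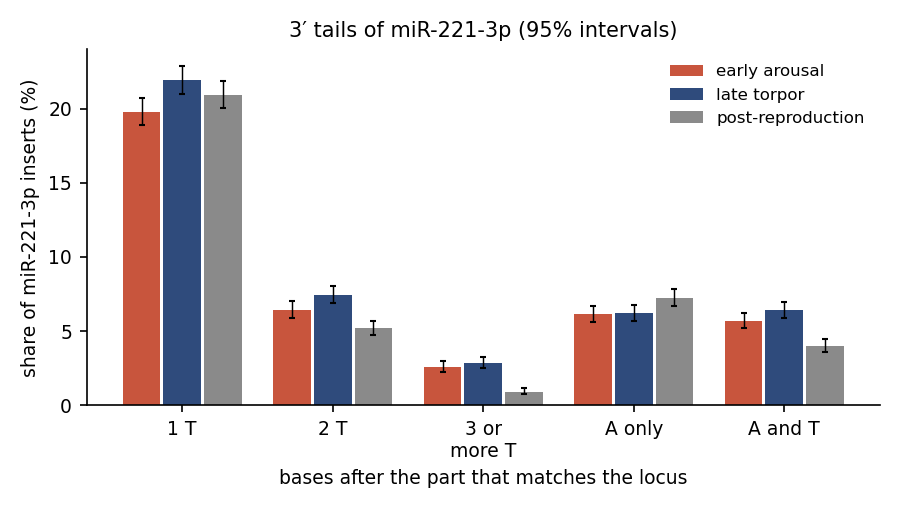
Share of miR-221-3p inserts in each library whose bases after the part that matches the locus are 1 T, 2 T, 3 or more T, A only, or a mix of A and T, with 95% counting intervals. Tails of 3 or more T stand at 2.59% in early arousal and 2.85% in late torpor, against 0.926% in post-reproduction.

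The most abundant form carried no tail. This 22-nt form held 32.6% of miR-221-3p inserts in early arousal, 33.3% in late torpor and 35.4% in post-reproduction. The form with 1 T after it held 15.7%, 17.4% and 16.9%, and that with 2 T 6.25%, 7.19% and 5.06%. The 23-nt form that follows the locus with a C held 16.9% in early arousal, 14.0% in late torpor and 15.9% in post-reproduction. Among these 23-nt forms the added T and the encoded C were about equally frequent in post-reproduction, and late torpor had the most of the T form and the least of the C form.

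Reading errors moved with the libraries and touch these ends. A base other than the usual one at position 19 was read in 2.18% of miR-221-3p reads in early arousal, 0.609% in late torpor and 0.767% in post-reproduction. For miR-222-3p these were 2.59%, 0.993% and 0.515%. In post-reproduction, 10.9% of the 22-nt miR-221-3p inserts had a T in place of the adapter base at cycle 24, against 1.79% in early arousal and 1.38% in late torpor. An N was present in 0.408%, 1.12% and 5.51% of miR-221-3p reads in early arousal, late torpor and post-reproduction. The part of these errors in the length and tail differences was not tested.

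The miRNAs whose pair of ratios against post-reproduction lay nearest to miR-221-3p, of 85 compared over 3 libraries, were miR-24-3p, miR-29b-3p, miR-101-3p, miR-199a-3p and miR-92a-3p. The nearest, miR-24-3p, lay at a distance of 0.0519 on the log2 scale, with 389, 494 and 526 CPM in early arousal, late torpor and post-reproduction. Nearest to miR-222-3p were miR-28-3p, miR-29b-3p, miR-30a-5p, let-7b-5p and miR-33a-5p, with miR-28-3p at a distance of 0.0747. miR-29b-3p, of the miR-29 family, appeared beside both members. The order takes no account of counting error. miR-29b-3p had 303, 281 and 356 reads in early arousal, late torpor and post-reproduction, and miR-92a-3p had 88, 101 and 104. The members lay 0.221 from each other, so miR-222-3p was 15th in the order from miR-221-3p, and miR-221-3p was 8th in the order from miR-222-3p.

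miRNAs of the cell types in which the pair is known were set beside it. The endothelial pair miR-126-3p and miR-126-5p (2 of 2 with at least 100 reads) summed to 27.8 CPM in early arousal, 38.2 CPM in late torpor and 28.0 CPM in post-reproduction. Both were highest in late torpor, miR-126-3p with 7.53, 13.6 and 9.94 CPM and miR-126-5p with 20.2, 24.7 and 18.1 CPM. These rest on few reads, 48, 71 and 55 for miR-126-3p and 129, 129 and 100 for miR-126-5p. Their intervals for late torpor over post-reproduction were 0.947 to 1.98 and 1.04 to 1.79. Scaled over listed miRNAs, they were 0.892 to 1.86 and 0.982 to 1.69, and both held 1. In the list of stellate and smooth muscle miRNAs, 2 of 5 had at least 100 reads, and these summed to 3880, 3541 and 4074 CPM in early arousal, late torpor and post-reproduction. Of them miR-199a-3p, a stellate and fibroblast miRNA, was like the pair in being highest in post-reproduction, at 1878, 1974 and 2234 CPM, whereas miR-143-3p of smooth muscle had 2002, 1567 and 1840 CPM. miR-145-5p and miR-214-3p had 67 and 80 reads in all, and miR-199a-5p had none in the table.

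Blood cell miRNAs were, in sum, highest in late torpor. Red cell miRNAs (miR-451a, miR-144-3p and miR-486-5p, 3 of 3) summed to 120, 305 and 174 CPM in early arousal, late torpor and post-reproduction, and leukocyte miRNAs (miR-142-5p and miR-146a-5p, 2 of 6) to 64.8, 109 and 69.0 CPM. The leukocyte miRNAs did not run alike. miR-142-5p had 52.7, 86.8 and 46.4 CPM, whereas miR-146a-5p had 12.1, 22.4 and 22.6 CPM and was not highest in late torpor. Among the other leukocyte miRNAs, miR-155-5p had 35 reads in all, miR-223-3p 32, miR-150-5p 1 and miR-142-3p none in the table. The hepatocyte miRNA miR-122-5p, 1 of 4 in its list, had 637051, 854187 and 760060 CPM, while the others of the list, miR-148a-3p, miR-192-5p and miR-194-5p, had no placed read. Their part in the levels of the pair was not tested.

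Among miRNAs of growth and fibrosis that are often described with the pair, 7 of 10 had at least 100 reads, among them miR-92a-3p, miR-29a-3p, miR-29c-3p and let-7a-5p, the last counted together with let-7c-5p. In late torpor over post-reproduction their median ratio was 1.09, with 4 intervals above 1 and 1 below. Over all 81 miRNAs the median was 1.02, with 30.9% of intervals above 1 and 28.4% below. With the listed-miRNA factors the list had a median of 1.03, with 4 intervals above 1 and 2 below. Over all 81 the median was then 0.961, with 24.7% above and 37% below. miR-21-5p, induced in regenerating and fibrotic liver, had 1656, 2435 and 1913 CPM in early arousal, late torpor and post-reproduction, so unlike the pair it was highest in late torpor. In early arousal over post-reproduction the median of the list was 0.874, with 1 interval above 1 and 6 below, and over all 80 it was 0.893, with 21.2% above and 50% below. With the listed-miRNA factors the list had a median of 0.969, with 3 intervals above 1 and 2 below. Over all 80 the median was then 0.990, with 41.2% above and 36.2% below. miR-17-5p, of the growth-associated miR-17-92 cluster, was the one above on the first scaling, with 23.99, 25.4 and 18.3 CPM in early arousal, late torpor and post-reproduction. In early arousal over late torpor the list had a median of 0.860, with 0 intervals above 1 and 5 below, against 0.859 over all 82, with 13.4% above and 53.7% below. With the listed-miRNA factors its median was 1.01, with 0 intervals above 1 and 1 below. Over all 82 the median was then 1.01, with 30.5% above and 28% below.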

How the data were processed

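Per the file headers, the authors deposited 1 table of genome positions whose entries join a 30-base read, its whole-number read count and the stage. These deposited counts are raw and were not altered. The sources used here do not give the aligner, genome build or filters. The placed part of a read (at least 18 bases) is in capitals. The table holds placed reads only. Per the labels' protocols, about 10 µg of pooled total RNA per stage was cut at 18 to 30 nt and amplified by 15 PCR cycles.

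Each distinct read was counted once per stage and grouped by its first 18 bases, giving 138376 groups. No file pairs reads with miRNA names, so a miRNA is the most abundant group that begins with a short key of up to 9 bases, written from general knowledge. Near-identical miRNAs can exchange reads through sequencing errors. TMM factors (30% trim on ratio, 5% on abundance) over all groups were 1.14, 0.893 and 0.986 in early arousal, late torpor and post-reproduction. Scaling is treated as exact in the intervals. Inserts of 18 to 26 nt ended where at least 4 adapter bases matched with up to 1 mismatch. Ratios have exact conditional binomial intervals, shares exact binomial (Clopper-Pearson) ones, and levels exact Poisson ones. PCR reads carry no molecular identifiers. Calculations used Python 3.11.15, numpy 2.4.6, pandas 2.3.3 and scipy 1.17.1, and figures matplotlib 3.10.9. The code was tested on simulated data. Inserts of 25 and 26 nt were not simulated, so length calls there were not tested.

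The members, lists and settings were chosen with earlier results of these data known. Named are both members, lengths past 1%, tails of 1 or 2 bases past 0.5%, forms past 5%, partner arms, list members with at least 100 reads, and the 5 nearest miRNAs. Scalings, read rules and adapter rules were varied.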

Additional observations from a re-analysis of the deposited data

How the results depend on the processing

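Of 129 recomputed values, 73 stayed within the counting interval (counts of miRNAs within 1.5 times), 54 moved past it and 2 were log2 ratios with an interval clear of 0 whose sign changed. The early arousal over late torpor ratio of miR-222-3p, whose interval held 0 as reported, changed sign under the 5 settings that moved it. Log2 ratios are given in the order late torpor over post-reproduction, early arousal over post-reproduction and early arousal over late torpor. For miR-221-3p they were -0.14, -0.42 and -0.28 as reported. Plain scaling to miRNA reads gave -0.31, -0.19 and 0.11, placed reads -0.28, -0.21 and 0.071, median-of-ratios factors -0.21, -0.25 and -0.0394, and TMM over listed miRNAs -0.23, -0.27 and -0.0427. The sign of early arousal over late torpor thus depended on the scaling, and the cause was not tested. Settings that changed which reads were counted kept the scaling of all reads. With a recognised adapter only, the first and second were -0.0318 and -0.32, and with distinct reads seen at least 2 times the first was -0.0932. For miR-222-3p they were -0.36, -0.42 and -0.06 as reported. Plain counts gave -0.53, -0.20 and 0.33, placed reads -0.51, -0.22 and 0.29, median-of-ratios factors -0.43, -0.26 and 0.18, TMM over listed miRNAs -0.45, -0.27 and 0.18, and the most abundant insert only -0.22, -0.16 and 0.0563.

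With the most abundant insert only, the miR-221-3p to miR-222-3p balance was 1.66, 2.16 and 2.02 in early arousal, late torpor and post-reproduction, so early arousal and not late torpor stood apart. It was 2.15, 2.49 and 2.15 in early arousal, late torpor and post-reproduction with distinct reads seen at least 2 times, with late torpor highest. The 23-nt share of miR-221-3p was 41.6% in early arousal and 43.8% in post-reproduction with no adapter mismatch, and 42.7%, 40.4% and 42.1% in early arousal, late torpor and post-reproduction with at least 6 adapter bases. The 23-nt share of miR-222-3p was 64.2%, 63.5% and 62.7% with at least 6 adapter bases, a rule that drops inserts over 24 nt because reads have 30 bases, and 50.6% in early arousal and 42.8% in post-reproduction with distinct reads seen at least 2 times. The tail share of miR-221-3p was 43.5%, 45.2% and 42.4% with at least 6 adapter bases, 45.4% in post-reproduction with no adapter mismatch, 44.9% in early arousal and 42.6% in post-reproduction with distinct reads seen at least 2 times, and 44.4% in early arousal and 42.3% in post-reproduction by the locus sequence. For miR-222-3p in late torpor it was 100% with distinct reads seen at least 2 times. With at least 20 reads over both libraries, 17 miRNAs passed 1.5-fold in late torpor over post-reproduction and 26 in early arousal over post-reproduction. The causes of the other moves were not tested.

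TMM over listed miRNAs, the most abundant insert and the locus sequence were added after seeing the data. Counting only reads identical to a listed mature sequence was not run, since no file here holds one. No paired analysis was possible because each stage has 1 library. With 1 library per stage the spread between animals is unknown, and a difference can belong to a library rather than to its stage.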
